A study of Mus musculus with 2 samples.

Results

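The 40 genes of the lysosome and of autophagy described here were measured in RNA-seq libraries of a pair of sorted T cell populations. They were taken by symbol from the deposited expression table and comprise cathepsins, other lysosomal hydrolases, lysosomal membrane proteins, the regulators Tfeb and Tfe3, and autophagy genes. All 40 symbols were found among the 41592 gene IDs of the table. A mean of at least 1 FPKM (fragments scaled to gene length and to library size) over both libraries was reached by 39 of them, and Cd63 was the exception.

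Both populations were YFP-positive CD4+ T cells of Foxp3 dCNS1-Cre-R26-YFP mice on C57BL/6, taken at 6 to 8 weeks of age from lymph nodes and spleen. As the genotype reads, Cre is under Foxp3 control with the conserved element CNS1 deleted, and a Rosa26 YFP reporter labels cells in which Cre has acted, together with their descendants. The sorts differed in Thy1.1, and their single libraries are called the negative library (Thy1.1-YFP+) and the positive library (Thy1.1+YFP+). The number of mice behind a library is not given in the sources used here. The study's design text names thymus-derived regulatory T (Treg) cells and exFoxp3 precursors but attaches the same markers to both, so sort markers are used as names. With 1 library per population there is no replicate error and no p-value. Differences are given as negative minus positive library on the log2(FPKM + 1) scale, on which differences of weakly expressed genes are understated. Ratios of FPKM carry a 95% Clopper-Pearson interval from whole reads recovered from the table, which covers counting error only. PCR reads without molecular identifiers are not independent molecules.

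Lysosomes are acidic organelles in which hydrolases break down proteins, glycans and lipids that arrive by endocytosis or by autophagy. Autophagy wraps cytoplasm in a double membrane whose growth depends on the attachment of LC3 and GABARAP proteins to lipid, and the closed autophagosome then fuses with the lysosome. TFEB and TFE3 are transcription factors that enter the nucleus when the kinase mTORC1 is inactive at the lysosome, and they bind E-box sequences in the promoters of many lysosomal genes. In T cells, autophagy is known to support survival and the stability of Treg cells.

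The genes were chosen by symbol and not by promoter sequence. E-boxes are, however, already known in the promoters of many lysosomal genes. A high share of E-boxes among the members is therefore not independent of that choice. Promoter windows from 250 bases before to 50 bases from the start were taken from RefSeq (build GRCm38.p6), where 34 members matched with 40 windows. Atg12, Atg16l1, Becn1, Ctsb, Map1lc3a and Npc1 were not matched. The E-box CACGTG, which reads the same on both strands, was present in 12 of the 40 windows (30.0%), against 7.15% of all 32851 windows and 10.2% of the 11278 windows of genes with a mean of at least 1 FPKM. Longer forms that contain the E-box belong to the CLEAR element, the sequence bound by TFEB. GTCACGTG, searched on both strands, was in 22.5% of the members' windows, 2.25% of all windows and 4.26% of the windows of genes with a mean of at least 1 FPKM. TCACGTGA, which also reads the same on both strands, was in 12.5%, 0.974% and 1.97% of the same windows. These matches overlap, since each longer form includes an E-box. A match describes letters in a window and does not show binding.

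The 110 bases just before the RefSeq start are shown for 8 members, with E-boxes in capitals, on the strand of the gene and on build GRCm38.p6. Lgmn and Grn are shown because they had the largest differences of all members. Ctsa, Ctsd and Glb1 are shown because they were higher with an E-box. Mcoln1, Lamp1 and Atg3 are shown because they carry 2 or more E-boxes in this stretch and differed little. Over the whole window Ctsa (at -12 and 6), Ctsd (-245 and -98) and Gla (-227 and -194, not shown) also carry 2 E-boxes each. Lgmn and Ctsa each have 2 listed starts, and their E-boxes lie at 1 of them.
Lgmn, chr12:102439093-102439202, minus strand: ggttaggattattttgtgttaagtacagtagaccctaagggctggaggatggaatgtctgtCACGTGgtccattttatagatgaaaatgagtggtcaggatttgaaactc
Grn, chr11:102430397-102430506, plus strand: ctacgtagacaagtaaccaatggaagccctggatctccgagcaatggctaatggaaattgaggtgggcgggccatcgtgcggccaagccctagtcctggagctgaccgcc
Ctsa, chr2:164833663-164833772, plus strand: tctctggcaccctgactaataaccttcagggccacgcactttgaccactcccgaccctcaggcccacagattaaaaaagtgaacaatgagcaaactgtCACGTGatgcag
Ctsd, chr7:142387828-142387937, minus strand: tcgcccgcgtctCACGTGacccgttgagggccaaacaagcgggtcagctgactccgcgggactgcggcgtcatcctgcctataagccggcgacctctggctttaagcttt
Glb1, chr9:114400968-114401077, plus strand: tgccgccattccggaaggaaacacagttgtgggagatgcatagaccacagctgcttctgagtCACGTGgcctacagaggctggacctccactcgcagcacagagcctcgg
Mcoln1, chr8:3500409-3500518, plus strand: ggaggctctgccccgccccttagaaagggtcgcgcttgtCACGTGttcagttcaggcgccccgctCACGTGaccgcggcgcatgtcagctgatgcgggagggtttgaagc
Lamp1, chr8:13159051-13159160, plus strand: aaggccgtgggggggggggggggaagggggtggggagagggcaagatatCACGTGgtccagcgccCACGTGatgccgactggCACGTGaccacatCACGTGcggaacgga
Atg3, chr16:45158719-45158828, plus strand: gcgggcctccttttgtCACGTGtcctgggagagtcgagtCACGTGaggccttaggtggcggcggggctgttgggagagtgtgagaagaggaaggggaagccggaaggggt
Lamp1 holds 4 E-boxes in this stretch, Mcoln1 and Atg3 hold 2 each, and Grn holds none.

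Members with and without an E-box had like median differences. The 12 members with an E-box had a median difference of 0.20 with 8 above 0, and the 21 measured members with a window and no E-box had a median of 0.22 with 15 above 0. Lgmn had an E-box starting 49 bases before the start and the largest difference of all members, at 1.75. Lamp1, with E-boxes starting at 61, 45, 28 and 15 bases before the start, had a difference of -0.04. Grn, without one, had the second largest difference. The signs of Lamp1, Gaa, Atg5 and Atg7, the E-box genes below 0, turned after rescaling by the upper quartile, which moved the median of all genes from 0.03 to 0.26.

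**Figure D1:**
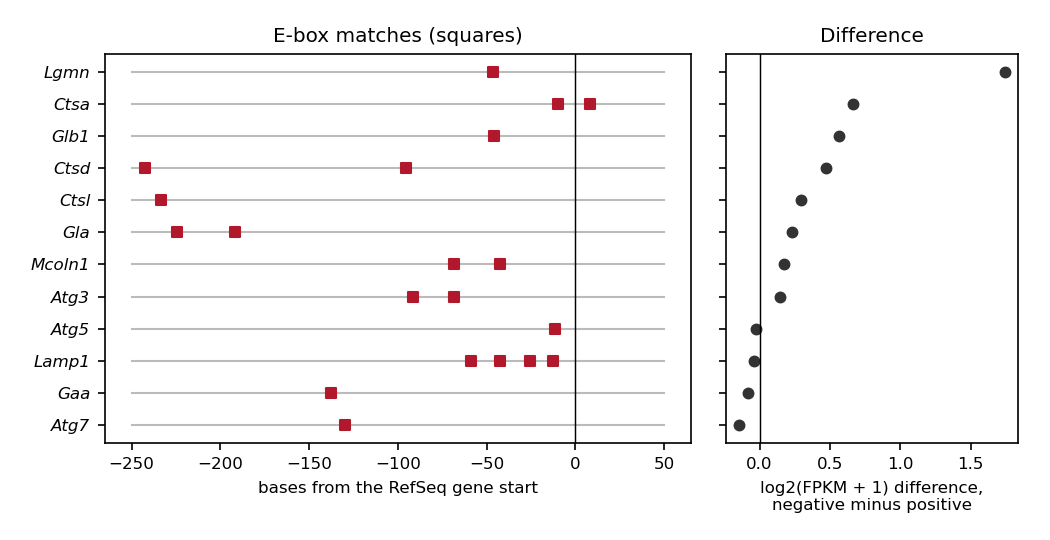
Left, positions of E-box matches (squares) in the RefSeq promoter windows of 12 members, in bases from the gene start; right, the log2(FPKM + 1) difference of each gene, negative minus positive library, 1 library each. Genes are ordered by difference, from Lgmn at 1.75 to Atg7 at -0.15, and Lamp1, with 4 matches, sits near 0.

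The libraries were of like depth, at 18536339 counted reads in the negative and 18600581 in the positive library. The members had a median of 990.5 and 862 recovered reads. The T cell genes were high in both, with Cd3e at 292 and 248 FPKM and Cd4 at 471 and 327 FPKM, and Foxp3, the factor that defines Treg cells, stood at 158 and 237 FPKM.

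Lysosomal genes were mostly higher in the negative library, and autophagy genes were close to level. Among the 21 measured members that encode lysosomal hydrolases, activators and membrane proteins, 16 lay above 0, with a median of 0.25. Their summed level was 1064 FPKM in the negative and 855 FPKM in the positive library, a ratio of 1.25. Of the 16 autophagy genes, 8 lay above 0 and 8 below, with a median of 0.04 and a summed level of 1054 against 1015 FPKM. In bulk RNA, more cells of a type and more RNA per cell cannot be told apart. Over all 39 measured members the median was 0.18 with 26 above 0, while over the 12820 measured genes the median was 0.03 with 55.1% above 0. Rescaled by the upper quartile, 38 of 39 members lay above 0, as did 82.7% of all genes, and the distance between the members' median and that of all genes was 0.18 against 0.15 as deposited. The medians of the lysosomal and the autophagy members were then 0.50 and 0.30.

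At least 2-fold higher on the log2(FPKM + 1) scale were 2 of the 39 members, Lgmn and Grn, beside a background of 1.93% of all measured genes (247 of 12820). None was 2-fold lower, where the background was 1.15%. By counting error alone, the interval of the ratio lay above 1 for 25 members (64.1%) and below 1 for 5 (12.8%), against 26.8% and 18.5% of all measured genes. That share also depends on depth, and 33 of the 39 members lay above the level of the median gene. Ratios between 0.8 and 1.25 were found for 24 of the 39 members (61.5%), compared with 67.9% of all measured genes.

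**Figure D2:**
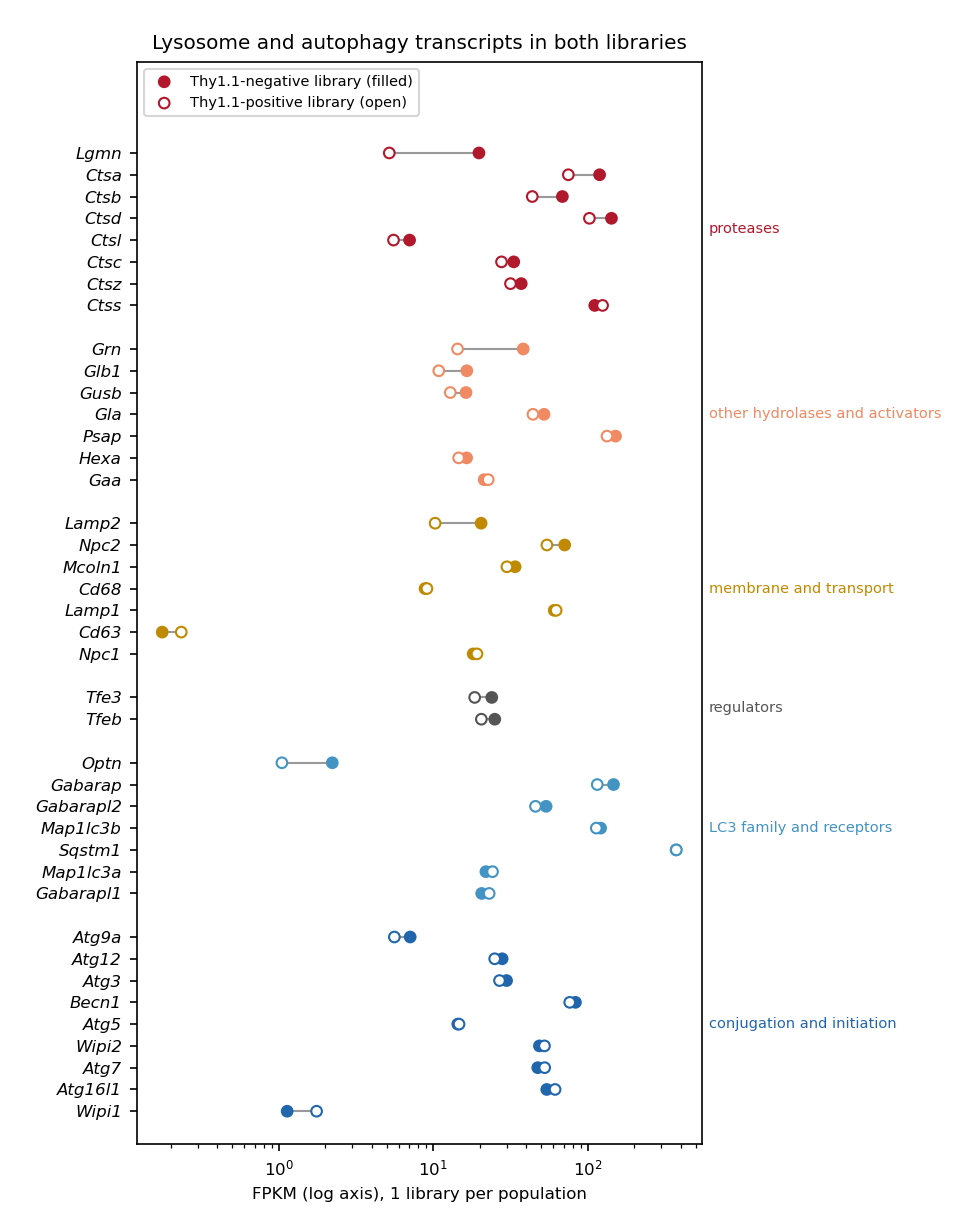
FPKM of all 40 members (log axis) in the negative library (filled points) and the positive library (open points), 1 library each, grouped by role and joined by a line. Lgmn, Grn, Lamp2 and Optn show the widest gaps with the filled point to the right, Sqstm1 is highest and level at 373 and 374 FPKM, and Cd63 is lowest.

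Proteases had the highest median difference of the 6 roles, at 0.38, with 7 of 8 above 0. Lgmn encodes legumain, an asparaginyl endopeptidase that also processes cathepsins. Its level was 19.8 FPKM in the negative and 5.20 FPKM in the positive library, from 565 and 149 reads. Its ratio was 3.81 (3.17 to 4.59), and its difference of 1.75 ranked 52 among the 12820 measured genes. No other member had a larger difference.

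The 7 cathepsins together summed to 519 FPKM in the negative and 411 FPKM in the positive library, and 6 of them were higher in the former. Ctsa, which encodes the serine carboxypeptidase that protects beta-galactosidase and neuraminidase, stood at 119 against 74.9 FPKM, a ratio of 1.59 (1.48 to 1.72). Ctsb, a cysteine protease, had 68.6 and 43.8 FPKM and a ratio of 1.57 (1.504 to 1.63). Ctsd, the main aspartic protease of lysosomes and the most abundant cathepsin here in the negative library, had 142 and 103 FPKM and a ratio of 1.39 (1.32 to 1.46). None of these reached 2-fold, although each interval lay above 1. The read number of Ctsa, and so the width of its interval, is uncertain, and 34.4% of the exon bases of Ctsd are shared with another annotated gene on the same strand.

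Smaller differences were seen for the other cathepsins. Ctsl, an endopeptidase of low abundance in these cells, had 7.03 and 5.54 FPKM and a ratio of 1.27 (1.053 to 1.53). Ctsc, the dipeptidyl peptidase that activates granzymes, had 33.2 and 27.7 FPKM and a ratio of 1.20 (1.09 to 1.32). Ctsz, a carboxypeptidase, had 37.1 and 31.6 FPKM and a ratio of 1.17 (1.07 to 1.29). Ctss, a cysteine protease best known for processing the invariant chain in antigen-presenting cells, was the protease below 0, with 111 and 125 FPKM and a ratio of 0.890 (0.846 to 0.937). Upper-quartile rescaling turned its difference to 0.09, beside a median of 0.26 for all genes.

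Among the other hydrolases and their activators, 6 of 7 lay above 0, with a median of 0.23. Grn encodes progranulin, a secreted protein that is cut into granulins in the lysosome. Its level was 38.3 FPKM in the negative and 14.4 FPKM in the positive library, a ratio of 2.66 (2.30 to 3.09), and its difference of 1.35 ranked 125 among the differences of all measured genes. Glb1, the lysosomal beta-galactosidase, had 16.5 and 10.9 FPKM and a ratio of 1.52 (1.35 to 1.71). Gusb, the beta-glucuronidase, had 16.3 and 12.9 FPKM and a ratio of 1.26 (1.102 to 1.45). Apart from Grn, no member of this role was past 2-fold.

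Gla, Psap, Hexa and Gaa differed less. Psap encodes prosaposin, whose fragments help enzymes reach sphingolipids, and was the most abundant lysosomal member, at 151 and 133 FPKM with a ratio of 1.14 (1.099 to 1.17). Gla, an alpha-galactosidase, had 52.2 and 44.2 FPKM and a ratio of 1.18 (1.099 to 1.27). Hexa, the alpha subunit of beta-hexosaminidase, had 16.5 and 14.6 FPKM and an interval of 0.997 to 1.27. Gaa, which degrades glycogen, had 21.4 and 22.7 FPKM and an interval of 0.839 to 1.06. The intervals of Hexa and Gaa both included 1, so at this depth no difference could be told from counting error.

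Membrane and transport genes split into a higher and a level set. Lamp2, a structural glycoprotein of the lysosomal membrane that also takes part in chaperone-mediated autophagy, had 20.4 FPKM in the negative and 10.3 FPKM in the positive library. Its ratio of 1.98 (1.78 to 2.21) lay just under the 2-fold rule, and after rescaling by the upper quartile it passed. Lamp1, its close relative and the usual lysosome marker, was level at 60.7 and 62.5 FPKM, with an interval of 0.920 to 1.03. The intervals of Lamp2 and Lamp1 did not overlap.

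Npc2 and Npc1 act in sequence to move cholesterol out of the lysosome. Npc2, the soluble carrier, had 70.95 and 54.5 FPKM and a ratio of 1.30 (1.24 to 1.36). Npc1, the membrane transporter, had 18.1 and 19.2 FPKM and an interval of 0.858 to 1.04, whose width is uncertain because its read number is. The pair therefore differed in its ratios, with Npc2 higher in the negative library and Npc1 within counting error of level.

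The calcium channel gene Mcoln1 had 33.9 and 30.0 FPKM, with an interval of 1.007 to 1.27. Cd68, a heavily glycosylated lysosomal protein used as a macrophage marker, had 8.86 and 9.11 FPKM, with an interval of 0.775 to 1.22. Cd63, a tetraspanin of late endosomes, was near the floor in both libraries, at 0.176 and 0.234 FPKM from 3 and 4 reads, and is given without comparison. Lamp1, Npc1 and Cd68 were slightly below 0 as deposited, and all 3 turned sign after rescaling by the upper quartile. They then stood at 0.21, 0.17 and 0.19, below the rescaled median of all genes, 0.26.

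Transcripts of both regulators were modestly higher in the negative library. Tfeb had 25.04 and 20.5 FPKM, with a ratio of 1.22 (1.06 to 1.40). Tfe3 had 23.9 and 18.6 FPKM, with a ratio of 1.29 (1.18 to 1.41). Their activity is set largely by where the proteins are in the cell, which transcript levels do not measure.

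**Figure D3:**
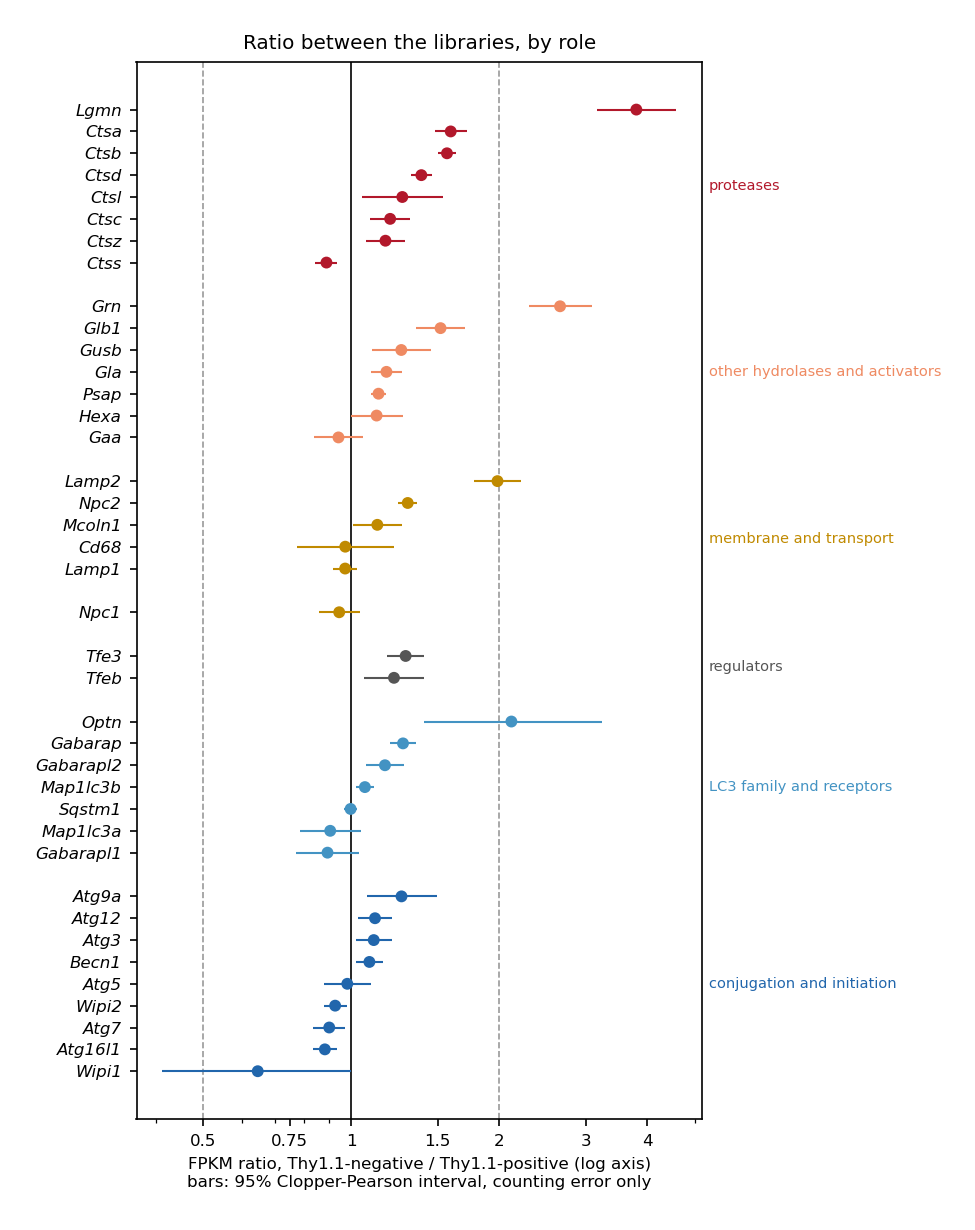
FPKM ratio (log axis) of the 39 measured members, negative over positive library, grouped by role; bars are 95% Clopper-Pearson intervals from recovered reads and cover counting error only. Dashed lines mark ratios of 0.5 and 2: the points of Lgmn, Grn and Optn lie right of the upper one, Lamp2 at 1.98 sits on it, and the genes of conjugation and initiation lie on both sides of 1.

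The autophagosome's LC3 and GABARAP proteins and their cargo receptors were near level apart from Optn and Gabarap. Sqstm1 encodes the cargo receptor sequestosome, which binds ubiquitin and LC3, and had the highest level of all members, at 373 and 374 FPKM. Its ratio of 0.997 had an interval of 0.967 to 1.03, from 8454 and 8510 reads, and its difference of -0.00 turned to 0.25 after rescaling by the upper quartile, which moved the median of the role from 0.09 to 0.35. Optn, another cargo receptor, had 2.22 and 1.0496 FPKM from 76 and 36 reads, with a ratio of 2.12 (1.41 to 3.24). On the log2(FPKM + 1) scale its difference was 0.65, and it passed the 2-fold rule with a pseudocount of 0.1.

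Within the LC3 and GABARAP family, 3 of 5 genes lay above 0. Gabarap itself had 147 and 115 FPKM, with a ratio of 1.27 (1.20 to 1.35). Gabarapl2 had 53.8 and 45.9 FPKM, with a ratio of 1.17 (1.07 to 1.28). Map1lc3b, the commonly assayed LC3 gene, had 121 and 114 FPKM, with a ratio of 1.07 (1.02 to 1.11). Map1lc3a and Gabarapl1 were lower, at 21.9 against 24.2 FPKM and 20.6 against 23.03 FPKM, but both intervals included 1, reaching from 0.785 to 1.04 and from 0.770 to 1.04. Both signs turned after rescaling by the upper quartile, to 0.11 and 0.09, beside a median of 0.26 for all genes.

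Genes of initiation and conjugation had the lowest median of any role, at -0.03, with 4 of 9 above 0, and it became 0.22 after rescaling by the upper quartile. Atg9a, which encodes a lipid scramblase on vesicles that seed the new membrane, had 7.10 and 5.61 FPKM and a ratio of 1.27 (1.07 to 1.49). Atg12, the ubiquitin-like protein, had 27.9 and 25.004 FPKM and a ratio of 1.12 (1.03 to 1.21). Atg3, the enzyme that passes LC3 to lipid, had 29.9 and 26.9 FPKM and a ratio of 1.11 (1.02 to 1.21). Becn1, a subunit of the lipid kinase complex that starts autophagosome formation, had 83.3 and 76.5 FPKM and a ratio of 1.09 (1.02 to 1.16). These 4 were higher in the negative library, by ratios of at most 1.27. Exon bases shared with other annotated genes make up 43.9% of Becn1, on the opposite strand, and 31.8% of Atg9a, on the same strand. Whether counting used strand is not given in the sources used here, and strand would not separate the overlap of Atg9a.

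On the other side stood the conjugation enzyme and its scaffold. Atg16l1, which places the conjugation machinery on the membrane, had 54.3 and 61.5 FPKM and a ratio of 0.884 (0.835 to 0.935). Atg7, the activating enzyme for ATG12 and LC3, had 47.5 and 52.7 FPKM and a ratio of 0.902 (0.836 to 0.973). Wipi2, which reads the lipid signal and recruits ATG16L1, had 48.7 and 52.5 FPKM and a ratio of 0.927 (0.878 to 0.979). Atg5, the partner of ATG12, was level at 14.4 and 14.7 FPKM, with an interval of 0.878 to 1.097. Atg16l1, Atg7, Wipi2 and Atg5 all turned sign after rescaling by the upper quartile, to 0.08, 0.11, 0.14 and 0.22. These values stayed below the rescaled median of all genes, 0.26.

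Wipi1, a relative of Wipi2, was the member with the lowest ratio, at 1.14 against 1.76 FPKM. Its ratio of 0.645 rested on 36 and 56 reads, and the upper end of its interval was 0.998. Of the 39 measured members, Wipi1 alone stayed below 0 after rescaling by the upper quartile.

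Other genes of the same pathways were read from 6 lists with no member in them, 157 genes in all, of which 150 were measured. At least 2-fold higher was 1 of the 150, Mcoln2, and none was 2-fold lower. Mcoln2, a relative of the calcium channel gene Mcoln1, had 2.51 FPKM in the negative and 0.742 FPKM in the positive library, from 64 and 19 reads, with a difference of 1.01. The background for this count is the 1.93% of all measured genes.

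The 37 other lysosomal hydrolases and cofactors had a median of 0.16, with 25 above 0. Scpep1, a serine carboxypeptidase related to Ctsa, had the highest difference, with 10.3 and 5.20 FPKM and a ratio of 1.97 (1.66 to 2.35). Ctsw, a cathepsin of cytotoxic lymphocytes, had the lowest, with 21.1 and 41.7 FPKM and a ratio of 0.505 (0.452 to 0.565). The 26 other membrane and sorting genes had a median of 0.19, with 18 above 0. Igf2r, the receptor that sorts hydrolases carrying mannose 6-phosphate, had the lowest difference among them, at 92.5 against 148 FPKM and a ratio of 0.623 (0.6002 to 0.647).

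Subunits of the V-ATPase, the proton pump that acidifies lysosomes, were mostly higher in the negative library, with 16 of 18 above 0 and a median of 0.21. Atp6v1d led them at 51.6 against 36.1 FPKM, a ratio of 1.43 (1.32 to 1.56), and Atp6v0a1, one of several alternative membrane subunits, was lowest at 4.57 against 7.32 FPKM, a ratio of 0.625 (0.516 to 0.754). Of the 18 intervals, 14 lay above 1, against 26.8% over all measured genes, a share that depends on depth: the median level of the subunits was 38.5 FPKM and that of all measured genes 13.02 FPKM. None of the subunits passed 2-fold.

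Autophagy genes outside the members had lower medians than the lysosomal lists. The 30 other machinery genes had a median of 0.07 with 20 above 0. That share of 66.7% was close to the 67.6% of the other lysosomal hydrolases and cofactors. Lowest was Rubcn, an inhibitor of autophagosome maturation, at -0.18 (0.05 after rescaling by the upper quartile). Highest was Vamp8, a fusion protein of the autophagosome and lysosome, at 0.48. The 13 other selective autophagy receptors had a median of 0.01 with 7 above 0, between Bnip3 at -0.20 (0.02 after that rescaling) and Retreg1 at 0.23. The 26 genes of nutrient sensing upstream of Tfeb had a median of 0.08 with 16 above 0. Rescaled by the upper quartile, these 3 medians were 0.32, 0.27 and 0.30, beside 0.26 for all genes, and those of the other hydrolases and of the other membrane and sorting genes were 0.40 and 0.42. Lamtor4, part of the Ragulator scaffold, was highest at 25.8 against 17.7 FPKM, and Rragd, which encodes the Rag GTPase RagD, was lowest at 7.63 against 14.6 FPKM, a ratio of 0.524 (0.470 to 0.583).

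**Figure D4:**
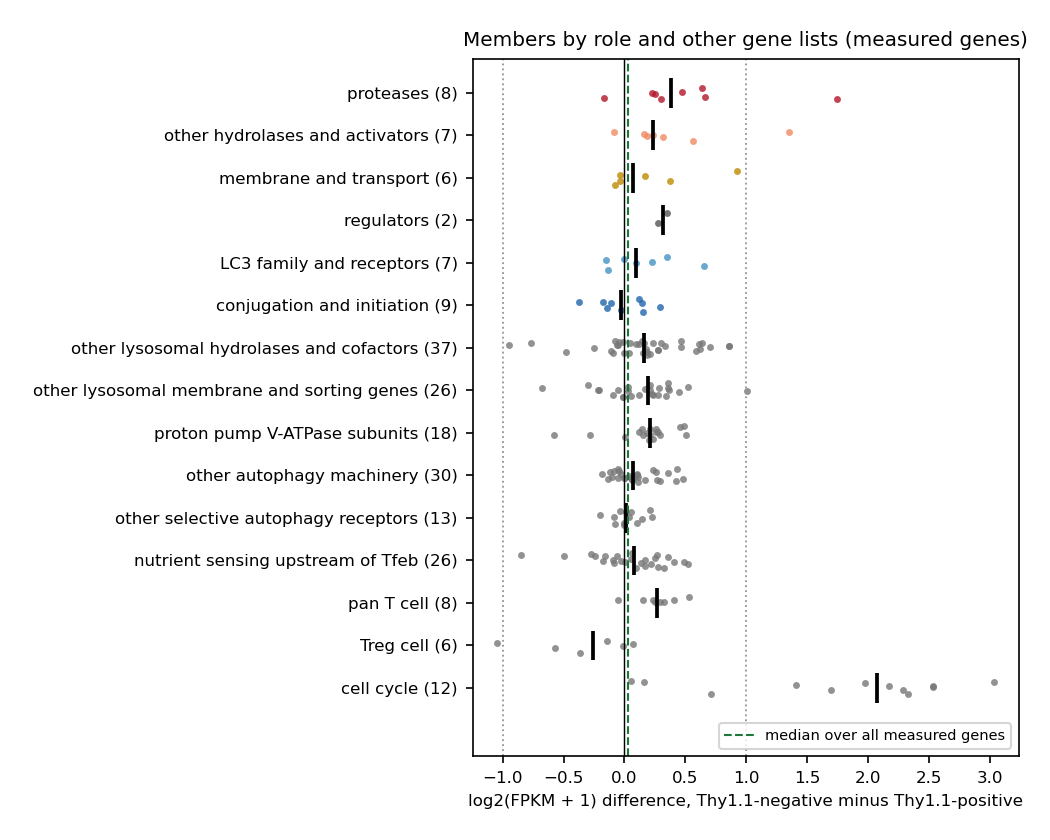
Log2(FPKM + 1) difference of each measured gene (points), negative minus positive library, for the 6 roles of the members (coloured) and other gene lists (grey), with the number of measured genes in brackets and the median as a black bar. The dashed line is the median of all measured genes, 0.03; proteases sit right of it at 0.38, conjugation and initiation genes sit at -0.03, and cell cycle genes sit far to the right at 2.08.

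Several lysosomal genes are also high in phagocytes and antigen-presenting cells, so markers of such cells were read in both libraries. Of 14 macrophage and monocyte markers, 2 were measured, Cst3 and Itgam. The list summed to 69.6 FPKM in the negative and 51.4 FPKM in the positive library, mostly from Cst3, and without Cst3 to 6.08 and 1.32 FPKM. Itgam accounted for 4.17 and 0.272 FPKM of these, from 229 and 15 reads. It passed the 2-fold rule, with a ratio of 15.3 (9.10 to 27.8). The other 12 markers together reached 1.91 and 1.049 FPKM. Among those 12, Lyz2, from 7 and 5 reads, and Csf1r, from 4 and 4 reads, were near the floor in both libraries. C1qa, C1qb and Cd163 were listed at 0 in the positive library, and no marker of the list was at 0 in the other. In the negative library these genes rested on 1, 1 and 3 reads, and the interval of each ratio included 1.

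Dendritic cell markers summed to 3.40 and 3.28 FPKM, and neutrophil markers to 1.48 and 1.94 FPKM. B cell markers summed to 15.1 and 9.89 FPKM over 10 genes, with Cd22 highest in difference at 5.59 against 2.60 FPKM. MHC class II genes summed to 52.1 and 49.8 FPKM, mostly from Cd74 at 46.8 and 45.8 FPKM. Among them H2-Aa had 1.52 and 0.592 FPKM from 46 and 18 reads, a ratio of 2.56 (1.46 to 4.70). The intervals of the other 3 measured class II genes included 1. CD8 genes summed to 4.78 and 4.49 FPKM. The 4 natural killer cell markers summed to 14.6 and 13.1 FPKM, and among them Klrb1c passed the 2-fold rule at 2.08 against 0.445 FPKM while Ncr1 was listed at 0 in the negative library. The 5 plasma cell markers summed to 160.4 and 171 FPKM, mostly from Xbp1 at 141 and 161 FPKM. Among them Prdm1 passed the 2-fold rule at 15.01 against 6.62 FPKM, and Sdc1 had 3.51 and 2.06 FPKM. Jchain, at 0.440 and 0.779 FPKM, and Mzb1, at 0.179 and 0.238 FPKM, had a mean below 1 FPKM. The part of such cells in the lysosomal values was not tested.

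Other differences between the populations ran alongside the lysosomal ones. Of 12 cell cycle genes, 9 were past the 2-fold rule upward in the negative library, against 1.93% of all measured genes. Their list had a median of 2.08. The replication genes Mcm5 at 0.71, Pcna at 0.16 and Mcm2 at 0.05 were those not past the rule. Of the 6 Treg genes, 5 lay below 0, with a median of -0.26 (-0.00 after rescaling by the upper quartile). Il2ra passed the 2-fold rule downward at -1.05, and its difference was -0.79 after that rescaling. Ctla4 was the 1 gene of the list above 0, at 0.07. The 8 general T cell genes, such as Cd4 with a ratio of 1.44 (1.40 to 1.48), had a median of 0.27, about the size of the median of the lysosomal members. The part of these differences in the values of the members was not tested.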

How the data were processed

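The table deposited by the authors holds FPKM with 1 row per Ensembl ID and 1 column per sort, in whose names P and N were taken to mean Thy1.1 present and absent. TopHat2 2.0.12, Bowtie2 2.2.3, HTSeq 0.6.1 and build mm9 are listed in the submitters' processing notes, without settings, strand or annotation release. Libraries were made from 3 µg of total RNA of cells sorted to a purity typically above 97%, per the labels' protocols. Symbols came from GENCODE M21 (96.8% of IDs), which is on another build than mm9. The only positions given are those of the promoter stretches, on build GRCm38.p6.

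Whole reads were recovered from the FPKM values: in all 23442 genes above 0 in both libraries the values stood in whole-number ratios times a common factor, within 2e-12. The library totals were set where implied lengths equalled mean annotated transcript lengths, and each gene's reads by the multiple nearest to that length. The implied length was within 10% of the annotated one for 29 members; for Ctsa and Npc1 the multiple is uncertain, and with it the width of their intervals. The recovery was tested on simulated data.

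A gene was called past 2-fold when log2(FPKM + 1) differed by at least 1, at a mean FPKM of at least 1. Of the members, 11 share at least 5% of their exon bases with another annotated gene (Atg9a, Becn1, Ctsa, Ctsb, Ctsd, Ctsl, Gabarapl1, Glb1, Hexa, Lamp1 and Sqstm1), and their counts are less certain. Every member is named; from each list the genes past 2-fold and those with the highest and lowest difference could be named, and others (Lyz2, Csf1r, C1qa, C1qb and Cd163 among them) were picked with their values in view. The members, lists and alternatives were chosen with earlier results of these data known. Python 3.11.15, scipy 1.17.1 and pandas 2.3.3 were used.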

Additional observations from a re-analysis of the deposited data

How the results depend on the processing

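Lgmn and Grn passed 2-fold, and no member was 2-fold lower, under each pseudocount, filter and rescaling tried. With a pseudocount of 0.1 Optn passed as well, and after rescaling by the upper quartile Lamp2 did. With a 1.5-fold rule 6 members were higher (Lgmn, Grn, Lamp2, Ctsa, Ctsb and Optn), and with a 4-fold rule 0 were; both follow from the rule itself. The members' median difference was 0.44 after rescaling by the upper quartile, beside 0.26 for all genes, and from 0.15 to 0.18 otherwise. Under that rescaling 12 members turned sign, and no other alternative turned any. All 12 stayed below the rescaled median of all genes. Over all genes, 247 higher and 148 lower became 402 and 293 with a pseudocount of 0.1, 72 and 19 with 5, 107 and 60 at a mean FPKM of at least 5, 398 and 82 by the upper quartile, 745 and 493 at 1.5-fold, and 31 and 9 at 4-fold. No paired analysis was possible because each population had 1 library. Depth limits Cd63, Wipi1 and Optn most.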

Other observations

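Enzymes and helper proteins of sphingolipid breakdown were grouped after their values were seen, so their count describes that choice. Of 12 such genes, 11 had a positive difference (negative minus positive library), with a median of 0.22; Hexa, Glb1, Psap and Gla are among them. Over all measured genes 55.1% lay above 0, and of the 37 other lysosomal hydrolases and cofactors 25 did. The interval of the ratio lay above 1 for 7 of the 12 genes and included 1 for 5. Gm2a, the activator that presents GM2 ganglioside to hexosaminidase, had 36.7 and 19.8 FPKM, a ratio of 1.85 (1.74 to 1.97). Smpd1, the acid sphingomyelinase, had 9.46 and 5.42 FPKM, a ratio of 1.75 (1.46 to 2.10). Galc, the galactosylceramidase, was the exception at 2.60 and 2.63 FPKM, and its difference of -0.01 turned to 0.17 after rescaling by the upper quartile.

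Of the 5 measured cathepsins outside the members, Ctsw, Ctsf and Ctsh were lower in the negative library. Ctsf had 3.61 and 6.86 FPKM, a ratio of 0.526 (0.384 to 0.713), and Ctsh had 2.47 and 3.83 FPKM, a ratio of 0.645 (0.433 to 0.951). Ctsk had 1.97 and 1.41 FPKM, with an interval of the ratio from 0.903 to 2.15, and Ctso was near level at 18.1 and 18.7 FPKM. These genes were also chosen after their values were seen.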
